A study of Mus musculus with 6 samples.

Results

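The 110 genes described here encode splicing factors: the serine- and arginine-rich SR proteins (10 genes), the hnRNP proteins (20), the U1, U2 and Sm proteins with SF3 and U2AF (22), the PRPF proteins (13), the numbered RBM proteins (32) and the tissue regulators of the RBFOX, MBNL, CELF, PTBP and TRA2 families (13). They were chosen by a rule on gene symbols from the 11896 genes named in a table of transcript levels. The rule uses no measured value, but it was chosen with earlier results of these data known. Another 10 protein-coding genes whose symbols fall under the same patterns were not analysed here. The 110 genes had 309 listed transcripts, 1 to 14 per gene, out of 898 that the GENCODE M21 annotation gives them and 23300 listed for all genes. All 309 are annotated as protein-coding, so forms of these genes with a retained intron or a premature stop that leads to decay were not analysed here.

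The libraries were made from total RNA of primary mouse bone marrow stromal cells. In 3 libraries the cells came from mice heterozygous for Pth1rΔNLS, a parathyroid hormone receptor allele whose name refers to the nuclear localisation signal, and in the other 3 they came from wild-type mice (WT). The study, by its title, concerns entry of this receptor into the nucleus and thyroid hormone signalling in bone. The sources used here do not give age, sex, strain, how cells were isolated or whether every library had a mouse of its own. The p-values therefore cover the spread among these libraries only, part of which may be technical. Levels are taken to be FPKM, a count of fragments corrected for how long a transcript is and how much was sequenced, and a gene's level is the sum over its listed transcripts. Sequencing depth is unknown. Where 3 values are given for a genotype, they are those of its libraries 1, 2 and 3 in that order.

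Splicing removes introns from new transcripts. The U1 and U2 particles, built on a ring of Sm proteins, recognise the ends of the intron, U2AF and SF3 proteins place U2 at the branch site, and PRPF8 sits at the centre of the particle that cuts and joins. SR proteins mostly promote, and hnRNP and PTBP proteins mostly repress, the use of nearby exons, while RBFOX, MBNL and CELF proteins shift exon choice between tissues. The genes of these regulators are themselves alternatively spliced, and the forms differ in where the protein is found or in how strongly it acts.

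The exons printed here are those on which the description of forms turns: coding exons that some listed forms of a gene contain and others skip. Each is given 5′ to 3′ on the gene's strand from the GENCODE M21 transcripts of mm10, with the exon in capitals and 10 bases of the neighbouring exons of the same transcript in lower case; all coordinates are on mm10. The first set holds 5 of the exons whose inclusion did not overlap between genotypes; the Mbnl1 exon of 36 bases stands in the last set.
Hnrnpa2b1 exon of 120 bases, chr6:51464428-51464547, minus strand: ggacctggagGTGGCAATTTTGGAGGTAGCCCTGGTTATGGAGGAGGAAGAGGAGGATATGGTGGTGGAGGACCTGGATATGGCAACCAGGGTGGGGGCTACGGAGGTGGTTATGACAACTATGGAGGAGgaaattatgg
Hnrnph3 exon of 139 bases, chr10:63018760-63018898, minus strand: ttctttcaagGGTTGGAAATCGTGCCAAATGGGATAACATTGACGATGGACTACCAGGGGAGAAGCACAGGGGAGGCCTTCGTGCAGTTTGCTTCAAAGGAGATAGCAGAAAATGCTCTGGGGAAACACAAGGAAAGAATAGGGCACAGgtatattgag
Srsf9 exon of 79 bases, chr5:115331461-115331539, plus strand: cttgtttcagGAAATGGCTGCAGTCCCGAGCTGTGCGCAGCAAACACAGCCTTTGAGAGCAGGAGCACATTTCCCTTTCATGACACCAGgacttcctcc
Ptbp1 exon of 78 bases, chr10:79860117-79860194, plus strand: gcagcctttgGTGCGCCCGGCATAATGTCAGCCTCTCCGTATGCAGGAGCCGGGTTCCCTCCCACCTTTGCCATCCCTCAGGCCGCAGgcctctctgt
Ptbp3 exon of 34 bases, chr4:59546149-59546182, minus strand: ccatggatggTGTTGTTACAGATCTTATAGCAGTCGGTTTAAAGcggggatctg

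The second set holds exons that define well-known protein forms. The 36-base exon of Hnrnpa2b1 separates the B1 from the A2 protein, and the exons of 57 and 147 bases in Hnrnpd give, by inclusion or skipping of each, the 4 forms of the protein AUF1.
Hnrnpa2b1 exon of 36 bases, chr6:51467391-51467426, minus strand: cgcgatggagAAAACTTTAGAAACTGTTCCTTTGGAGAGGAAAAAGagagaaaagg
Hnrnpd exon of 57 bases, chr5:99976534-99976590, minus strand: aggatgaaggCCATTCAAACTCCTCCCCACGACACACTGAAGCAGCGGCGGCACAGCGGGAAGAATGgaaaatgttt
Hnrnpd exon of 147 bases, chr5:99963731-99963877, minus strand: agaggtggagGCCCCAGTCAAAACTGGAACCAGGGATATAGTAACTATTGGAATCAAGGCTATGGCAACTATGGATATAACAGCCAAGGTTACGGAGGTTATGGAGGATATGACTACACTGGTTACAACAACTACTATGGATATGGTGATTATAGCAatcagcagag

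The third set sets the paired exons of Mbnl1 and Mbnl2 beside each other. Here only the exon is shown, in lower case, and capitals mark the bases at which the genes differ. The 54-base exons, known for favouring nuclear location of the protein, share 46 of 54 bases (85.2%), and the 36-base exons share 31 of 36 (86.1%).
Mbnl1 exon of 54 bases, chr3:60614683-60614736, plus strand: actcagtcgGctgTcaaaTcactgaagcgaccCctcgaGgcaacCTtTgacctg
Mbnl2 exon of 54 bases, chr14:120395712-120395765, plus strand: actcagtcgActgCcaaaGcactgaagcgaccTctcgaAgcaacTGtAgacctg
Mbnl1 exon of 36 bases, chr3:60621423-60621458, plus strand: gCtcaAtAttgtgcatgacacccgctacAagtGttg
Mbnl2 exon of 36 bases, chr14:120403336-120403371, plus strand: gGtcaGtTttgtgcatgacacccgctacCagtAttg

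Splicing factor genes were read at high levels in these cells. All 110 were above 0 in each of the 6 libraries, 88 lay above the median gene of the table, and 23 were in the top 10%. Their summed level was 3331, 3683 and 3591 FPKM in Pth1rΔNLS libraries, against 3727, 3639 and 3608 FPKM in WT libraries. That was 0.971 to 1.14% of all FPKM in Pth1rΔNLS libraries and 1.09 to 1.18% in WT libraries. The lowest share was in Pth1rΔNLS library 1, in which mitochondrially encoded transcripts made up 18.2% of FPKM. They made up 12.8 and 10.6% in Pth1rΔNLS libraries 2 and 3, within the 6.48 to 12.8% of the WT libraries. With mitochondrially encoded transcripts left out, splicing factors made up 1.19 to 1.27% of FPKM in Pth1rΔNLS libraries and 1.24 to 1.26% in WT libraries.

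At the gene level, the splicing factors differed little between genotypes. Of the 108 with a mean of at least 1 FPKM, Rbm47, Rbm33 and Prpf8 rose in Pth1rΔNLS cells and Celf5 fell (limma on log2(FPKM + 1), two-sided, adjusted p under 0.05 over all 10905 genes tested), which is 3.70% of those tested. Over all genes tested, 17.3% passed the same test, 6.94% higher and 10.4% lower. Rbm38 and Mbnl3, with means of 0.728 and 0.744 FPKM, were not tested. Celf5 entered the test only because its WT libraries lifted its mean above 1 FPKM. In bulk RNA, fewer cells of a type and less RNA per cell cannot be told apart.

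The median log2 fold change, Pth1rΔNLS over WT, was −0.06 over the 108 splicing factors and −0.01 over all genes, and the median size of the change was 0.153 against 0.206. On the log2(FPKM + 1) scale fold changes ran from −0.89 to 0.49, and none reached 1 in size, as 380 of all genes did. That rests on the pseudocount of 1 for Celf5, whose change was −1.17 with a pseudocount of 0.5 and −1.60 with 0.1. The 95% interval lay within 0.5 of 0 on the log2 scale for 61 of the 108 and within 1 for 95. The libraries of the genotypes did not overlap for 19 of the 108 (17.6%, 8 higher and 11 lower), against 36.6% of all genes. At an unadjusted p under 0.05 there were 12 splicing factors, 6 higher and 6 lower, against 30.8% of all genes.

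**Figure D1:**
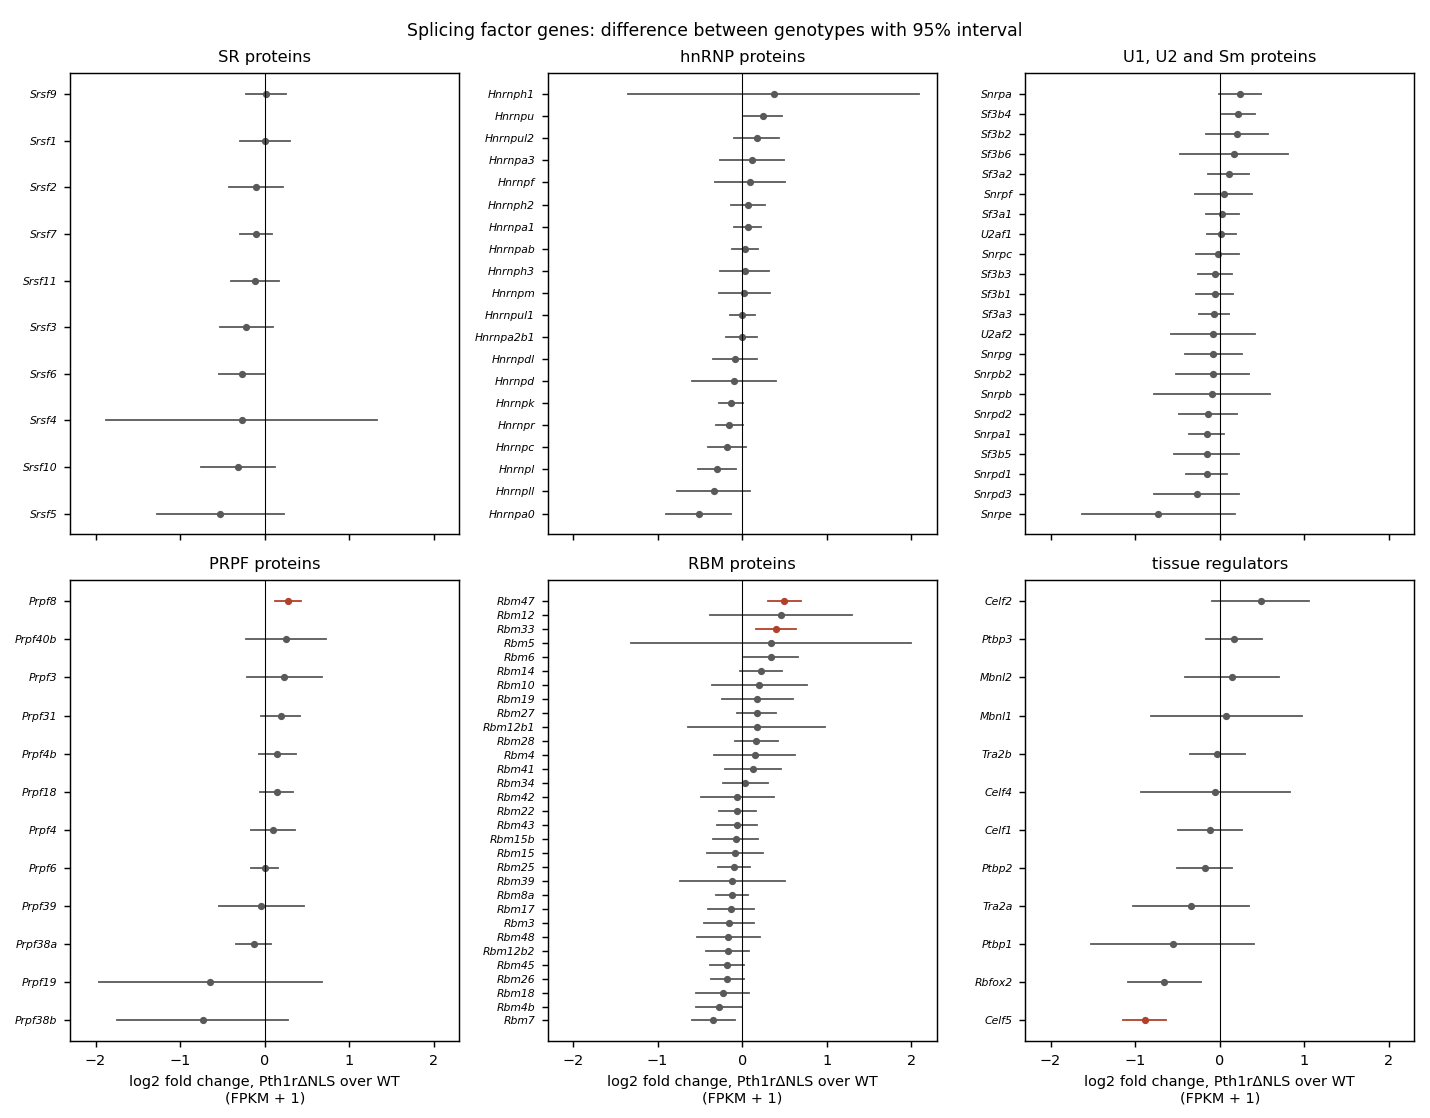
Log2 fold change of tested splicing factor genes, Pth1rΔNLS over WT on the log2(FPKM + 1) scale (x axis), by role. Points are estimates, lines are 95% intervals from limma (n = 3 libraries per genotype), and the 4 genes with an adjusted p under 0.05 are red. Most points lie close to 0, between −0.89 (Celf5) and 0.49 (Rbm47), and 13 genes have intervals that reach beyond 1 in size.

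Rbm47, which encodes an RNA-binding protein with known parts in alternative splicing and in cytidine editing of RNA (ENSMUSG00000070780.11, chr5:66016549-66173118, minus strand), was higher in Pth1rΔNLS cells. It had 20.6, 20.8 and 21.5 FPKM in Pth1rΔNLS libraries, against 15.6, 13.4 and 14.8 FPKM in WT libraries, and the 3 Pth1rΔNLS libraries lay close together above all WT libraries. The log2 fold change was 0.49, SE 0.08, 95% interval 0.30 to 0.69, adjusted p = 0.00943. Among its 5 listed forms, Rbm47-205 made up 87.3, 86.4 and 84.5% in Pth1rΔNLS libraries, against 81.3, 86.02 and 82.4% in WT libraries, so 1 form led in every library.

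Rbm33, encoding an RNA-binding protein with a known part in the export of mRNA (ENSMUSG00000048271.14, chr5:28317121-28419239, plus strand), had 7.82, 7.097 and 7.21 FPKM in Pth1rΔNLS libraries, against 5.43, 4.85 and 5.78 FPKM in WT libraries. The genotypes did not overlap. The log2 fold change was 0.40, SE 0.10, 95% interval 0.16 to 0.64, adjusted p = 0.0385. Prpf8, the core protein of the spliceosome (ENSMUSG00000020850.14, chr11:75486816-75509449, plus strand), had 35.1, 34.6 and 36.9 FPKM in Pth1rΔNLS libraries, against 28.5, 29.6 and 29.8 FPKM in WT libraries, again with no overlap. Its log2 fold change was small, 0.27, SE 0.06, 95% interval 0.12 to 0.42, adjusted p = 0.0324. Without any 1 of the 6 libraries the adjusted p of Prpf8 was 0.0532 to 0.110 and that of Rbm33 was 0.0687 to 0.117 (limma). Rbm47 and Celf5 stayed under 0.05 each time, though Celf5 reached the minimum level for the test only through the WT libraries.

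Celf5, a CELF family regulator known mainly from neurons (ENSMUSG00000034818.16, chr10:81459227-81482709, minus strand), was lower in Pth1rΔNLS cells and was among the least abundant splicing factors. It was read at 0.565, 0.586 and 0.513 FPKM in Pth1rΔNLS libraries, against 1.85, 1.97 and 1.82 FPKM in WT libraries, and the genotypes lay far apart beside the spread within each. The log2 fold change was −0.89, SE 0.11, 95% interval −1.14 to −0.64, adjusted p = 0.00281. Its mean exceeded 1 FPKM only through the WT libraries, so it could enter the test only by being high there. It has 1 listed transcript of 8 annotated, and 10.5% of all genes were read at a lower mean level. With WT library 1 and Pth1rΔNLS library 1 left out, the libraries with the lowest and the highest mitochondrial share, none of the 4 passed: the adjusted p was 0.0518 for Celf5, 0.0617 for Rbm47, 0.183 for Prpf8 and 0.202 for Rbm33.

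The genotypes also differed in markers of cell types, whose part in the splicing factor results was not tested. Of 14 listed macrophage markers 11 were higher in Pth1rΔNLS cells by the same limma test, with a summed level of 8199, 8504 and 8034 FPKM in Pth1rΔNLS libraries, against 5984, 6110.5 and 6237 FPKM in WT libraries. Of 11 listed marrow stromal markers 9 were lower, with a summed level of 689.6, 784 and 779 FPKM in Pth1rΔNLS libraries, against 2210.2, 1700.3 and 1971 FPKM in WT libraries; Lepr and Thy1 were not analysed here. All 5 tested osteoblast markers were lower, and 7 of 10 proliferation markers were higher. Of the adipocyte markers 2 of 2 tested were higher, and of the endothelial markers 1 of 2 tested was lower. Plin1 and Tek of these lists were not analysed here. In each list 1 more marker was too low to test, with a mean of 0.749 FPKM (adipocyte) and 0.863 FPKM (endothelial). Over all genes tested, 6.94% were higher and 10.4% lower. No listed transcript belonged to the B cell, T cell or erythroid markers, and the single listed neutrophil marker stayed under 1 FPKM. Pth1r itself had 1.91, 1.72 and 2.99 FPKM in Pth1rΔNLS libraries, against 7.98, 4.72 and 6.24 FPKM in WT libraries (log2 fold change −1.19, adjusted p = 0.0140 by limma). A gene sum cannot show the altered part of the allele and is no check of the labels.

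**Figure D2:**
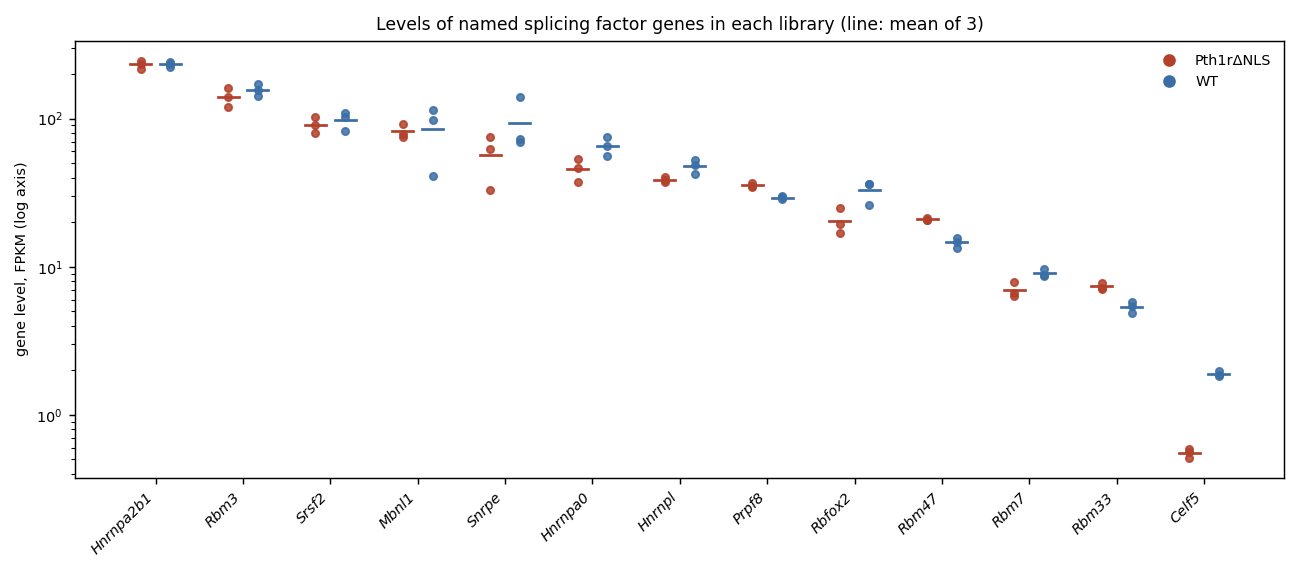
FPKM (log axis) of 13 splicing factor genes in each library, Pth1rΔNLS in red on the left and WT in blue on the right, ordered by mean; lines are means of 3 libraries. Shown are the 4 genes past the test, the most abundant gene of 5 roles and the 4 next lowest adjusted p-values. Celf5, at the right, has its Pth1rΔNLS points at 0.513 to 0.586 FPKM and its WT points at 1.82 to 1.97 FPKM.

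None of the 10 SR protein genes passed the test (limma), and 1, Srsf6, had an unadjusted p under 0.05, against 30.8% of all genes. Their fold changes ran from −0.53 to 0.01 on the log2 scale with a median of −0.17, and 8 of the 10 were below 0, against 5639 of the 10905 genes tested. Srsf2, whose protein promotes exon inclusion and is mutated in human blood cancers, was the most abundant, with 79.8, 90.4 and 103 FPKM in Pth1rΔNLS libraries, against 109, 82.8 and 102 FPKM in WT libraries. The genotypes overlapped, and the log2 fold change was −0.10 (95% interval −0.42 to 0.22). Summed over the 10 genes, SR protein mRNA was 316, 357 and 355 FPKM in Pth1rΔNLS libraries, against 398, 369 and 404 FPKM in WT libraries; each Pth1rΔNLS sum was below each WT sum. The sums of the other 5 roles overlapped between genotypes, and none of these sums was corrected for the mitochondrial share. Of the 10 SR genes 1, Srsf6, did not overlap between genotypes, against 36.6% of all genes. The median fold change of the group stands beside a median of −0.01 for all genes.

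None of the 20 hnRNP genes passed (limma). An unadjusted p under 0.05 was found for 3 of the 20, Hnrnpa0, Hnrnpl and Hnrnpu, against 30.8% of all genes. Hnrnpa2b1 was the most abundant of all 110 splicing factors; its protein binds exons and also sorts RNA for transport. Its level was 216, 247 and 235 FPKM in Pth1rΔNLS libraries, against 242, 223 and 236 FPKM in WT libraries, and the genotypes overlapped. The log2 fold change was −0.01 (95% interval −0.19 to 0.17). Hnrnpul1 and Hnrnpab had similarly narrow intervals, at 0.00 (95% interval −0.14 to 0.14) and 0.04 (95% interval −0.12 to 0.19). Hnrnpa0, which binds AU-rich elements of mRNA, had 37.3, 46.2 and 53.7 FPKM in Pth1rΔNLS libraries, against 75.2, 56.2 and 65.1 FPKM in WT libraries. Hnrnpl, a regulator of exon choice in the blood cell gene Ptprc, had 37.2, 40.1 and 38.4 FPKM in Pth1rΔNLS libraries, against 42.1, 52.4 and 48.9 FPKM in WT libraries. Neither gene overlapped between genotypes, with adjusted p-values of 0.0770 and 0.0794 by limma. No overlap was found for 4 of the 20 hnRNP genes, against 36.6% of all genes. Without WT library 1 the adjusted p of Hnrnpl was 0.0368, within a range of 0.0368 to 0.195 over 17 alternatives. Genes with unadjusted p-values under 0.05 and those of narrow or wide spread were named after their values were seen.

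Among the 22 genes for U1, U2 and Sm proteins, none passed (limma). Of these 1, Sf3b4, had an unadjusted p under 0.05, against 30.8% of all genes. The median log2 fold change was −0.09 over 11 Snrp genes, 0.03 over 9 Sf3 genes and −0.03 over U2af1 and U2af2. Snrpe, a subunit of the Sm ring, was the most abundant on average, with 32.9, 62.2 and 74.97 FPKM in Pth1rΔNLS libraries, against 139, 69.9 and 73.4 FPKM in WT libraries. WT library 1 stood high and Pth1rΔNLS library 1 low, and the rest overlapped, so the fold change of −0.73 (95% interval −1.63 to 0.17) was poorly fixed. Sf3b1, the branch site factor, was steady at 50.6, 46.2 and 51.7 FPKM in Pth1rΔNLS libraries, against 53.5, 55.8 and 46.2 FPKM in WT libraries. Its log2 fold change was −0.06 (95% interval −0.28 to 0.16).

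Of the 13 PRPF genes only Prpf8 passed. Prpf6, which links the parts of the tri-snRNP, had almost the same level in all libraries, 17.5, 17.6 and 18.05 FPKM in Pth1rΔNLS libraries, against 18.05, 17.7 and 17.5 FPKM in WT libraries. Prpf19 and Prpf38b each had 1 library far from the others of its genotype, Pth1rΔNLS library 2 at 3.70 FPKM and WT library 3 at 16.5 FPKM.

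Of the 31 RBM genes tested, Rbm47 and Rbm33 passed; the median log2 fold change was −0.06. Rbm3, a cold-inducible RNA-binding protein, was the most abundant, with 140.4, 159.9 and 119.7 FPKM in Pth1rΔNLS libraries, against 155, 142 and 170.3 FPKM in WT libraries. The genotypes overlapped, and the log2 fold change was −0.16 (95% interval −0.45 to 0.14). Rbm7, a part of the nuclear exosome targeting complex, had 7.899, 6.32 and 6.61 FPKM in Pth1rΔNLS libraries, against 8.82, 8.7 and 9.58 FPKM in WT libraries. The genotypes did not overlap, with an adjusted p of 0.0785 by limma.

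Among the 12 tissue regulators tested, only Celf5 passed. Mbnl1, which promotes adult exon choice in muscle, was the most abundant, with 92.03, 78.2 and 75.4 FPKM in Pth1rΔNLS libraries, against 40.7, 115 and 98.03 FPKM in WT libraries. WT library 1 had less than either of the other WT libraries, and the fold change of 0.08 (95% interval −0.81 to 0.97) was poorly fixed. Its direction turned with WT library 1 left out (log2 fold change −0.38, adjusted p = 0.118 by limma), it was −0.01 without Pth1rΔNLS library 1, and without WT library 1 and Pth1rΔNLS library 1 it was −0.46 (adjusted p = 0.0918 by limma), within a range of adjusted p-values of 0.0918 to 0.994 over 17 alternatives. Rbfox2, which binds UGCAUG and is known for exon choice in mesenchymal cells, had 19.5, 17 and 25.02 FPKM in Pth1rΔNLS libraries, against 26.1, 36.3 and 36.1 FPKM in WT libraries. Each Pth1rΔNLS library was below each WT library, with a log2 fold change of −0.66 (95% interval −1.09 to −0.22) and an adjusted p of 0.0535 by limma. Without Pth1rΔNLS library 3 the adjusted p was 0.0444 and without WT library 1 it was 0.0368, within a range of 0.0285 to 0.149 over 17 alternatives. Celf2, a broadly expressed relative of Celf5, had 14.8, 24.02 and 26.3 FPKM in Pth1rΔNLS libraries, against 17.2, 11.6 and 16.2 FPKM in WT libraries, which overlapped.

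Some splicing factors could not be measured tightly. In 15 of the 108 (13.9%) the highest library was over 2 times the lowest within a genotype, on FPKM + 1, against 9.08% of all genes. The widest were Hnrnph1, Prpf19, Rbm5, Srsf4 and Ptbp1. Hnrnph1, an hnRNP that binds G-rich RNA, had 11.2, 26.7 and 5.64 FPKM in Pth1rΔNLS libraries, against 23.3, 7.91 and 3.78 FPKM in WT libraries. Rbm5, known for its part in exon choice of the death receptor Fas, had 9.76, 14.5 and 2.68 FPKM in Pth1rΔNLS libraries, against 2.67, 14.2 and 4.38 FPKM in WT libraries. The form Rbm5-201 made up 73.2, 82.2 and 0% in Pth1rΔNLS libraries, against 0, 81.9 and 0% in WT libraries, so the libraries with low Rbm5 were those in which this form was listed at 0. An exact 0 from transcript assembly can be a failed estimate.

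Other genes of the splicing machinery, on a list of 119 tested genes that the symbol rule does not take, gave 1 higher and 4 lower (4.20% of them, against 17.3% of all genes tested). Snrnp35, a protein of the minor spliceosome, had 6.34, 6.91 and 5.3 FPKM in Pth1rΔNLS libraries, against 3.69, 4.13 and 3.26 FPKM in WT libraries. Rnpc3, another minor spliceosome protein, had 7.32, 6.77 and 7.16 FPKM in Pth1rΔNLS libraries, against 8.88, 9.64 and 9.04 FPKM in WT libraries. Khdrbs3, an exon regulator of the STAR family, had 5.26, 5.398 and 6.68 FPKM in Pth1rΔNLS libraries, against 10.8, 11.9 and 10.01 FPKM in WT libraries. In each of these 3 genes the genotypes did not overlap, with log2 fold changes of 0.61, −0.33 and −0.82 (SE 0.13, 0.08 and 0.12) and adjusted p-values of 0.0228, 0.0405 and 0.00615 by limma. The remaining ones, Magohb and Sap18, both of which are known with the exon junction complex, were lower with adjusted p-values of 0.0205 and 0.0424 by limma.

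Transcript forms were compared through each form's share of its gene's FPKM, a ratio within a library that does not depend on scaling between libraries. Of the 110 genes, 71 had at least 2 listed forms, 270 forms in all. None of the 270 differed at an adjusted p under 0.05 (limma on the log2 ratio of a form to the other forms), and the lowest adjusted p was 0.221. Over all genes the test passed 6 of 17171 forms, 0.0349%. An unadjusted p under 0.05 was found for 13 of the 270 (4.81%), against 6.78% of all forms. The libraries of the genotypes did not overlap for 34 (12.6%, 18 higher and 16 lower), against 12.7%. The median difference in mean share was 2.74 percentage points, against 4.60 over all forms, and 181 of the 270 differed by at most 5 points.

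The most used form was the same in all 6 libraries for 44 of the 71 genes (62.0%), against 54.3% of all genes with at least 2 forms. In 1 gene, Rbm26, a different form led in each genotype (1.41%), against 0.862% of all such genes. Rbm26, whose protein takes part in nuclear RNA decay, has a form of 3003 coding bases, Rbm26-203, which made up 37.5, 44.5 and 43.5% in Pth1rΔNLS libraries, against 38.2, 34.1 and 32.1% in WT libraries. Form Rbm26-205, a short model of 630 coding bases, made up 35.3, 30.97 and 33.03% in Pth1rΔNLS libraries, against 44.2, 46.9 and 45.03% in WT libraries. The leading form was thus Rbm26-203 in each Pth1rΔNLS library and Rbm26-205 in each WT library. Their adjusted p-values were 0.787 and 0.717 by limma.

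The lowest adjusted p of any form belonged to Mbnl1-207, a form of 1023 coding bases. Its share was 1.27, 1.57 and 1.51% in Pth1rΔNLS libraries, against 24.7, 9.89 and 12.01% in WT libraries. Each WT share was several times the highest Pth1rΔNLS share. The log2 ratio to the other forms differed by −2.77 (95% interval −3.86 to −1.68), with an adjusted p of 0.221 and an unadjusted p of 0.000791 (limma). The leading form Mbnl1-219, with 906 coding bases, had 61.2, 62.2 and 68.6% in Pth1rΔNLS libraries, against 9.73, 64.7 and 61.5% in WT libraries. WT library 1 stood apart from the other 5 in this gene.

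Several other forms had no overlap between genotypes without passing the test; those named here were chosen after their values were seen. Hnrnpm-206, a form of 2187 coding bases of the hnRNP M gene, had 52.6, 60.1 and 61% in Pth1rΔNLS libraries, against 43.6, 46.8 and 45.2% in WT libraries. Its log2 ratio differed by 0.71 (95% interval 0.10 to 1.32), with an adjusted p of 0.717 and an unadjusted p of 0.0285 (limma). Hnrnpl-211 had 21.6, 17.4 and 18.7% in Pth1rΔNLS libraries, against 13.7, 11.7 and 6.53% in WT libraries. In both forms the Pth1rΔNLS libraries were higher. Srsf5-201, 1 of 4 listed forms of an SR protein gene, had 46.9, 30.03 and 17.3% in Pth1rΔNLS libraries, against 13.5, 15.1 and 6.32% in WT libraries, again higher. Rbm3-202 had 17.8, 12.3 and 20.1% in Pth1rΔNLS libraries, against 8.01, 9.51 and 8.602% in WT libraries, also higher. Snrpd3-203, a shorter form of an Sm protein gene, had 0, 0 and 0% in Pth1rΔNLS libraries, against 40.9, 3.21 and 10.9% in WT libraries. It was listed at 0 in every Pth1rΔNLS library and was highest in WT library 1. Here too an exact 0 can be a failed estimate.

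**Figure D3:**
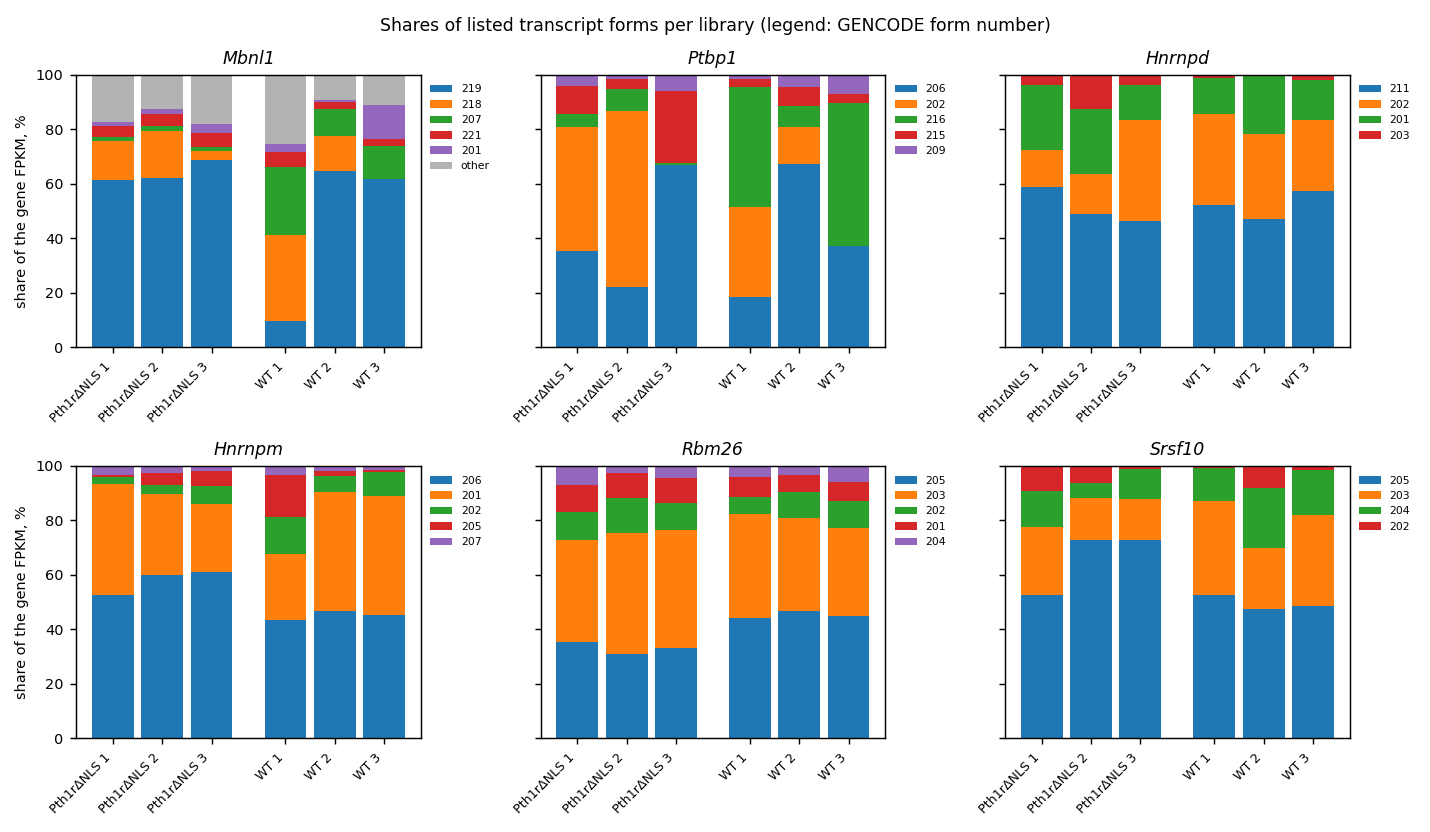
Share of each listed form in its gene's FPKM (y axis, %) in Pth1rΔNLS libraries 1 to 3 and then WT libraries 1 to 3, for 6 genes; colours are forms by GENCODE number, and grey is the sum of further forms. In Rbm26, forms 205 and 203 were the leading pair in every library, Mbnl1 in WT library 1 had 9.73% of form 219 where the other libraries had 61.2 to 68.6%, and Ptbp1 varied within both genotypes.

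Of the genes that passed at the gene level, Prpf8 and Rbm33 each had 3 listed forms, and no form share of either passed (limma). In Prpf8, the forms Prpf8-201 and Prpf8-202 have the same coding length of 7005 bases, and Prpf8-202 had 54.97, 31.98 and 94.7% in Pth1rΔNLS libraries, against 60.8, 45.3 and 27.9% in WT libraries. Within each genotype, either form could lead. In Rbm33, Rbm33-202 had 47.9, 50.1 and 47.96% in Pth1rΔNLS libraries, against 62.7, 51.8 and 49.6% in WT libraries, with an adjusted p of 0.847 by limma.

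Forms were then grouped by exon. An exon's inclusion is the FPKM of listed forms that contain it, as a percentage of those forms together with the forms that join its neighbours directly. This grouping was chosen after form shares had been seen and is given as a description without a test. It covered 35 coding exons in 24 splicing factor genes, of 34 to 1279 bases with a median of 95. A length divisible by 3, which keeps the reading frame, was found for 25 of the 35 (71.4%), against 80.8% of the 2137 such exons of all genes. Inclusion did not overlap between genotypes for 8 of the 35 (22.9%, 2 higher and 6 lower), each in another gene, against 12.9% of all exons.

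The exon of 120 bases in Hnrnpa2b1, printed at the start, lengthens the glycine-rich end of the protein. Its inclusion was 32.6, 32.2 and 32.6% in Pth1rΔNLS libraries, against 29.9, 30.6 and 28.4% in WT libraries. The libraries of each genotype lay close together, and the means were 32.5 ± 0.236% in Pth1rΔNLS cells and 29.6 ± 1.11% in WT cells (SD, n = 3 each). The 36-base B1 exon of the same gene had 1.06, 1.36 and 1.41% in Pth1rΔNLS libraries, against 1.92, 1.08 and 1.36% in WT libraries, so the A2 type prevailed in both genotypes.

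Hnrnpab, another hnRNP gene, has an exon of 141 bases with inclusion of 70.03, 73.9 and 69.2% in Pth1rΔNLS libraries, against 68.1, 70.03 and 68.1% in WT libraries, where the genotypes overlapped.

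The exon of 139 bases in Hnrnph3, which is not a multiple of 3, was included at 51.2, 55.4 and 56.9% in Pth1rΔNLS libraries, against 60.9, 64.1 and 60.7% in WT libraries. The genotypes lay apart, with means of 54.5 ± 2.96% in Pth1rΔNLS cells and 61.9 ± 1.88% in WT cells (SD, n = 3 each). The exon of 79 bases in Srsf9 was rare, at 2.83, 1.28 and 1.13% in Pth1rΔNLS libraries, against 0.853, 0 and 0.725% in WT libraries, and 1 WT library listed it at 0.

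In Ptbp1, inclusion of the 78-base exon is known to raise the repressive strength of the protein. It was included at 5.34, 8.67 and 0.897% in Pth1rΔNLS libraries, against 46.3, 8.75 and 58.7% in WT libraries. All Pth1rΔNLS libraries were low, but WT library 2 was as low as Pth1rΔNLS library 2, so the separation of the groups rests on a difference of less than 1 point there. In Ptbp3 the 34-base exon had 43.6, 51.9 and 32.4% in Pth1rΔNLS libraries, against 62.5, 94.8 and 52.1% in WT libraries. Here too the closest libraries, Pth1rΔNLS library 2 and WT library 3, were less than 1 point apart. The 1279-base exon of Rbm6, a relative of Rbm5, had 80.3, 89.9 and 91.1% in Pth1rΔNLS libraries, against 100, 91.8 and 100% in WT libraries, with 2 WT libraries at full inclusion because the skipping form was listed at 0. The including and skipping forms of Rbm6 had a mean of 5.01 FPKM, against 18.4 FPKM for the whole gene, so these percentages are no share of the gene.

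In Mbnl1 the 36-base exon had 8.26, 8.76 and 10.4% in Pth1rΔNLS libraries, against 45.7, 14.8 and 34.4% in WT libraries. Every Pth1rΔNLS library was below every WT library, and the WT libraries differed widely among themselves, with means of 9.15 ± 1.14% in Pth1rΔNLS cells and 31.6 ± 15.6% in WT cells (SD, n = 3 each). The 54-base nuclear exon of Mbnl1 had 20.4, 22.6 and 8.54% in Pth1rΔNLS libraries, against 45.3, 15.8 and 0.309% in WT libraries, which overlapped. The paired exons of Mbnl2, whose sequences stand beside those of Mbnl1, did not separate. The 54-base exon of Mbnl2 had 66.1, 63.7 and 45.5% in Pth1rΔNLS libraries, against 54.2, 65.1 and 50.4% in WT libraries. The 36-base exon of Mbnl2 had 8.26, 0 and 18.9% in Pth1rΔNLS libraries, against 0, 4.38 and 0% in WT libraries, with 3 libraries at 0.

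**Figure D4:**
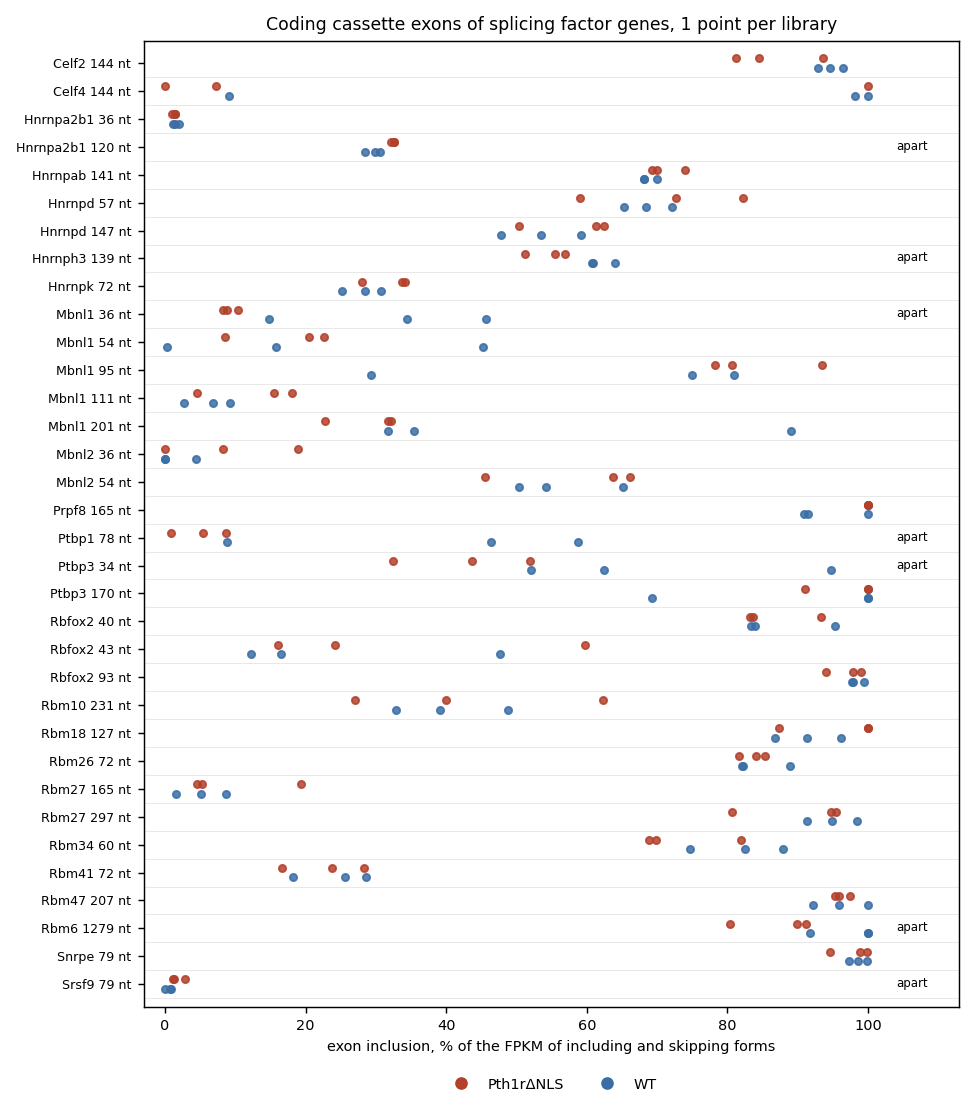
Inclusion (x axis, % of the FPKM of including and skipping forms) of 34 coding exons of splicing factor genes, named by gene and length in bases (nt); each point is 1 library, Pth1rΔNLS in red above WT in blue. The 7 exons marked as apart have no overlap between genotypes; in Hnrnpa2b1 (120 nt) the libraries lie close together, while in Ptbp1, Ptbp3 and Mbnl1 the WT libraries are widely spread.

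The exons behind well-known protein forms mostly overlapped. In Hnrnpd the 57-base exon had 82.2, 72.7 and 59% in Pth1rΔNLS libraries, against 65.3, 68.4 and 72.1% in WT libraries. The 147-base exon had 62.5, 61.4 and 50.4% in Pth1rΔNLS libraries, against 53.4, 47.8 and 59.2% in WT libraries. Neither exon separated the genotypes. The form with both exons, Hnrnpd-211, led in every library, with 58.6, 48.9 and 46.4% in Pth1rΔNLS libraries, against 52.1, 47.2 and 57.4% in WT libraries. The form with neither, Hnrnpd-202, had 13.9, 14.8 and 37% in Pth1rΔNLS libraries, against 33.4, 31.01 and 26.1% in WT libraries. Both overlapped. Hnrnpd-203, with the 147-base but not the 57-base exon, had 3.899, 12.5 and 4% in Pth1rΔNLS libraries, against 1.37, 0.602 and 1.87% in WT libraries, and each Pth1rΔNLS share was above each WT share, with an adjusted p of 0.724 by limma. Hnrnpd-201, with the 57-base but not the 147-base exon, had 23.6, 23.9 and 12.6% in Pth1rΔNLS libraries, against 13.2, 21.2 and 14.7% in WT libraries, which overlapped. In Rbfox2 an exon of 40 bases had 93.3, 83.6 and 83.2% in Pth1rΔNLS libraries, against 95.3, 83.4 and 83.9% in WT libraries. Forms with an alternative exon of 43 bases between the same neighbours were read far lower, at 0.779 to 1.76 FPKM over all libraries. Forms with the 40-base exon had 13.5 to 29.6 FPKM. Inclusion of the 43-base exon was 12.2 to 59.7% of a smaller set of forms. Both percentages leave out the forms with the other exon, so neither is a share of the whole gene.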

How the data were processed

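The submitters' processing notes name HISAT2, StringTie and mm10, with no version or setting. The authors deposited 1 value per transcript and library for 23351 transcripts. Their header names no unit, and the deposited values were taken as FPKM. Their sums per library ran from 315585 to 343040 over the matched transcripts, which is no common total but does not settle the unit. Transcripts were matched by identifier to GENCODE M21 (23300 matched, 22174 with the same version). The 51 without a match held at most 0.117% of the FPKM of a library. Whether strand was used is not given, so overlapping genes and close relatives (Rbm4 and Rbm4b, Rbm12b1 and Rbm12b2, Hnrnpa1 and its pseudogenes) are uncertain.

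Genes and form shares were fitted over the whole table with limma 3.58.1 (R 4.3.3, eBayes with trend), two-sided, with Benjamini-Hochberg adjustment, a pseudocount of 1 and a gene mean of at least 1 FPKM; forms needed a gene with at least 2 of them. The code was checked on simulated data. Fold changes on the log2(FPKM + 1) scale understate those of low genes. Exons needed a mean of at least 1 FPKM over including and skipping forms and full coding in 1 form. Tables and plots used Python 3.11.15, pandas 2.3.3, numpy 2.4.6 and matplotlib 3.10.9. Members and lists were chosen with earlier results of these data known. Named genes are those past a test and the most abundant per role; others are said to be chosen by value. Among members, 1 gene and 1 exon are counted but not reported here. A planned test of non-coding forms was not run, because all 309 listed forms are coding.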

Additional observations from a re-analysis of the deposited data

How the results depend on the processing

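Depth is unknown and 3 libraries a genotype limit the precision. Of the 3 genes higher and 1 lower, leaving out 1 library in turn gave 1 to 2 higher and 1 to 3 lower, while 1068 to 1695 of all genes passed, against 1886 with all libraries. Without WT library 1 and Pth1rΔNLS library 1 the counts were 0 and 0 (limma), with 617 of all genes passing. On the TPM scale 1 was higher (1652 of all genes passing), and with array weights 5 were lower (2429 of all genes), Hnrnpa0, Hnrnpl, Rbfox2 and Rbm7 joining Celf5. The cause was not tested. Over 17 alternatives Prpf8 lost its call in 10 (adjusted p 0.0223 to 0.183), Rbm33 in 9 (0.0306 to 0.202), Rbm47 in 2 (0.00447 to 0.0617) and Celf5 in 1 (0.00114 to 0.0518); no direction reversed. Leaving out Pth1rΔNLS library 3 added Rbm6 and Rbfox2, and leaving out WT library 1 added Hnrnpl and Rbfox2. No form share passed under any alternative. Exons that did not overlap numbered 9 to 13 of 35 with 1 library left out (25.7 to 37.1%, against 21.5 to 23.6% of all exons) and 14 without both libraries named above (40.0%, against 33.8%), where fewer libraries overlap less by construction. Alternatives on exons were chosen after the data were seen. The alternatives for non-coding forms were not run.

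With the replicate number as a block, 0 genes were higher and 1 (Celf5) was lower, with 792 of all genes passing. Same-numbered libraries deviated from their group means with correlations of −0.189, −0.0664 and 0.0657, so the numbers give no evidence of pairing.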
